A study of Mus musculus with 6 samples.

Results

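Fibroblast growth factor (FGF) receptors and ligands were followed in bone endothelial cells (BECs) of young adult female and male mice. The family was taken by gene name: the kinase receptors Fgfr1, Fgfr2, Fgfr3 and Fgfr4, the kinase-less receptor Fgfrl1, the secreted ligands Fgf1, Fgf2 and Fgf7, and the intracellular family members Fgf11 and Fgf13. These are 10 of the 37991 genes in the count table, and each of the 10 has a row of its own. Of the 10, 9 passed the filter on low counts and entered the test, and Fgf2 did not. The data were RNA sequencing counts from 6 libraries, 3 of females and 3 of males, all of the strain labelled c57/Bl6 and all aged 12 weeks, with no treatment or engineered allele given for either sex. Cells came from freshly dissected tibia according to the labels, where the paper's methods name tibiae and femurs. They were purified by their endomucin, a surface protein of bone capillary endothelium, without culture. The comparison asks how the transcripts of BECs differ between the sexes at this age. The labels do not say whether each library came from 1 animal or from pooled animals, so p-values measure the spread between these libraries.

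FGFs are signalling proteins that bind cell surface receptors with a tyrosine kinase inside the cell, and heparan sulfate chains on proteoglycans hold ligand and receptor together. Receptor activation passes through the adaptor FRS2 to the RAS-MAPK cascade, which drives growth and is restrained by feedback inhibitors. In bone, FGFR1 and FGFR2 act in cells of the osteoblast lineage, FGFR3 restrains the growth of cartilage, and FGF1 and FGF2 are known as growth factors for endothelial cells.

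Total counts lay between 47678806 and 58325745 per library, at which 3 counts equal 0.0477 to 0.0639 CPM, the counts scaled to library size that are used below after trimmed mean of M values (TMM) scaling. This floor covers counting error only. All 20 endothelial markers on the list used here were detected in every library, among them Cdh5 (vascular cadherin), Pecam1 (CD31) and Emcn (endomucin). Their summed level was 418 to 621 CPM in females and 252 to 388 CPM in males, or 0.0252% to 0.0621% of the TMM-scaled total. The 14 neutrophil markers, among them S100a8, summed to 1.93% to 4.48% of the total, with 19323 to 23574 CPM in females and 32870 to 44775 CPM in males. The 14 marrow stromal markers, among them Cxcl12 and Pdgfra, summed to 1541 to 3193 CPM in females and 1285 to 2462 CPM in males, the 9 erythroid markers, which include Hbb-bs, to 12141 to 17453 and 18457 to 27135 CPM, and the 8 macrophage markers to 3128 to 3570 and 2170 to 2913 CPM. The RNA therefore held transcripts of several marrow cell types beside those of endothelium, and a level in these libraries belongs to the purified cells as a whole. In such bulk RNA, fewer cells of a type and less RNA per cell cannot be told apart.

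None of the 9 tested FGF members was called as different in males and females at 0.05 after Benjamini-Hochberg adjustment. In the whole table, the quasi-likelihood test of edgeR called 8 of 19480 genes, or 0.0411%, so a count of 0 among 9 members is near the background. DESeq2's Wald test also called 0 members, with 345 of 19480 genes called in the whole table. At an unadjusted p under 0.05, both edgeR and DESeq2 gave 2 members, Fgf1 and Fgf7, against a background of 9.79% of all genes in edgeR. Both were lower in males, a direction in which 4.76% of all genes passed the unadjusted threshold, with 5.03% in the other direction. With 1 library left out, this count was 4 without female replicate 2, where Fgfr1 and Fgfrl1 joined, and 1, Fgf1, without either female replicate 1 or 3 and without either male replicate 1 or 2. The fitted log2 fold change, males over females, was below 0 for 8 of the 9 members and for 50.2% of all genes tested (5 of the 9 members without female replicate 1), and its median was -0.26 over the members and -0.0012 over all genes tested. Fgf1 was the 1 tested member whose groups did not overlap, a property of 14.5% of all genes tested, with 7.29% lower and 7.25% higher in males.

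**Figure D1:**
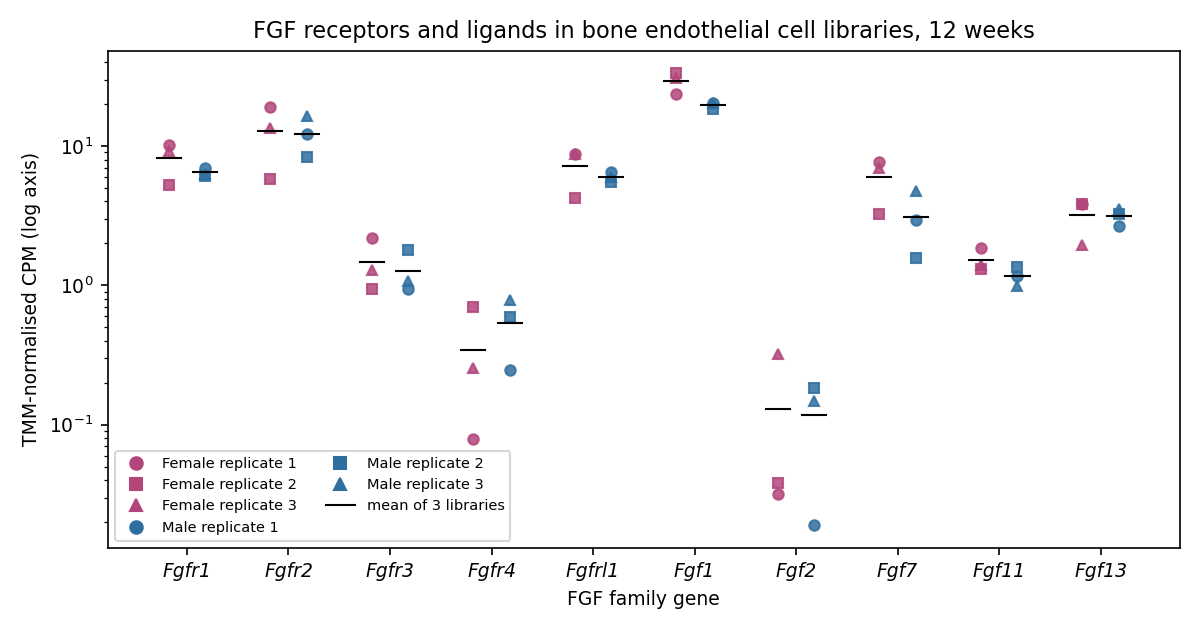
TMM-normalised CPM of the 10 FGF members on a log axis, 1 point per library (females left, males right of each gene name; marker shapes give the replicate number) with a line at the mean of 3 libraries. Fgf1 lies at 18.3 to 33.2 CPM with all females above all males, while the sexes overlap for each of the other 9 members.

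The 4 kinase receptors were all detected in every library, with Fgfr2 the highest of the 4 in each when CPM are divided by gene length. Fgfr2 (ENSMUSG00000030849, chr7:129763471-132725079, minus strand, GRCm39), a receptor for which epithelial and mesenchymal cells make different splice forms, had 18.9, 5.79 and 13.6 CPM in female replicates 1, 2 and 3. In males it had 12.1, 8.32 and 16.4 CPM. Female replicate 1 was the highest and female replicate 2 the lowest of the 6 libraries, 3.27 times apart, and all 3 males lay between these. The log2 fold change, males over females, was -0.06 with a standard error (SE) of 0.40 and a 95% interval of -0.97 to 0.85 (edgeR, adjusted p = 0.977). This interval does not exclude differences of almost 1 on the log2 scale either way. The sign of the small fold change turned when single libraries were left out, to 0.35 without female replicate 1 and to 0.16 without male replicate 2.

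The gene counts do not separate the splice forms of Fgfr2, whose immunoglobulin-like domain nearest the membrane ends in 1 of 2 alternative exons. The IIIb form is the known receptor for FGF7, and the IIIc form is not. In the GENCODE M39 annotation of GRCm39, 11 of the 48 annotated transcripts hold the IIIb exon, 18 of 48 hold the IIIc exon, and 1 holds both. Reads from either exon were counted as Fgfr2, so the CPM above are the sum of the forms.

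The study also measured Fgfr2 by quantitative PCR, and its primers show which transcripts such a measurement and the gene count have in common. The primers, 5' to 3', are given whole in capitals.
Fgfr2 forward: CCCAGCCTCTCGAACAGTAT
Fgfr2 reverse: ATAAGGCATGGGGTCTGGAG
Their product of 98 bases lies at chr7:129765740-129765837 (GRCm39) within 1 exon and crosses 0 exon boundaries. It is found in 35 of the 48 annotated Fgfr2 transcripts, among them all 11 with the IIIb and all 18 with the IIIc exon, and in no transcript of another gene. Like the count, it reads the splice forms together.

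The annotated span of Fgfr2 is 2961609 bases long because 1 of its 48 transcripts starts far upstream, and without it the gene ends at 129868272 and spans 104802 bases. Through that transcript, 314 bases, or 2.77% of the exons of Fgfr2, are shared on the same strand with Ctbp2, a transcriptional co-repressor. Ctbp2 had 17.0, 17.4 and 21.6 CPM in females and 16.1, 17.6 and 19.1 CPM in males (log2 fold change -0.08, SE 0.15; edgeR, adjusted p = 0.894). Ctbp2 thus had neither the low value in female replicate 2 nor the high value in female replicate 1 seen for Fgfr2.

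Fgfr1 (ENSMUSG00000031565, chr8:26003670-26066824, plus strand), the receptor through which FGF1 and FGF2 act on many mesenchymal and endothelial cells, had 10.1, 5.28 and 9.16 CPM in females. Males had 7.002, 6.11 and 6.30 CPM. Female replicates 1 and 3 were above all males and female replicate 2 below all of them, so the groups overlapped, and the spread was 2.57 CPM (SD, n = 3) in females and 0.471 CPM in males. The log2 fold change was -0.34 (SE 0.25, 95% interval -0.90 to 0.22; edgeR, adjusted p = 0.703). Gm16159, an antisense RNA gene that overlaps 125 bases (0.979%) of the Fgfr1 exons, had 0 counts in all 6 libraries.

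Fgfrl1 (ENSMUSG00000008090, chr5:108840206-108858366, plus strand) encodes a receptor that binds FGFs but lacks the kinase domain. It had 8.73, 4.22 and 8.73 CPM in females and 6.51, 5.56 and 5.98 CPM in males. The arrangement was that of Fgfr1, with female replicates 1 and 3 above the males and female replicate 2 below them. Its log2 fold change was -0.26 (SE 0.28, 95% interval -0.88 to 0.35; edgeR, adjusted p = 0.799).

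The remaining receptors had few counts. Fgfr3 (ENSMUSG00000054252, chr5:33879018-33894412, plus strand), known from growth plate chondrocytes, had 2.18, 0.946 and 1.30 CPM in females and 0.949, 1.79 and 1.07 CPM in males. The groups overlapped and the log2 fold change of -0.22 (SE 0.41, 95% interval -1.14 to 0.70; edgeR, adjusted p = 0.898) became 0.19 without female replicate 1. Fgfr4 (ENSMUSG00000005320, chr13:55300352-55316572, plus strand), a receptor best known in liver and muscle, had 5, 37 and 12 counts in females and 13, 29 and 37 in males. That is 0.0795, 0.700 and 0.256 CPM against 0.247, 0.588 and 0.780 CPM, a range of 9.81 times within which the sexes overlapped. Fgfr4 was the 1 tested member with a positive log2 fold change, 0.64, and its SE of 0.76 and its 95% interval of -1.03 to 2.32 were the widest of the 9 tested (edgeR, adjusted p = 0.821). With 1 library left out, the log2 fold change lay between 0.18, without female replicate 1, and 1.70, without female replicate 2.

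Among the ligand genes, Fgf1 had the highest level per gene length, and its values were higher in all 3 females than in any male. Fgf1 (ENSMUSG00000036585, chr18:38971717-39077186, minus strand) encodes acidic FGF, which binds all 4 kinase receptors and leaves cells without a classical signal peptide. It had 23.6, 33.2 and 30.7 CPM in females, from 1486, 1757 and 1442 counts. In males it had 20.5, 18.3 and 20.4 CPM, from 1081, 902 and 969 counts. The lowest female was 23.6 CPM and the highest male 20.5 CPM, and the means were 29.2 ± 4.98 CPM (SD, n = 3) in females and 19.7 ± 1.25 CPM (SD, n = 3) in males. Fgf1 was 1.48 times as high in females, with a log2 fold change, males over females, of -0.56 (SE 0.15, 95% interval -0.90 to -0.23). Its p-value ranked 299 of 19480 and did not pass the adjustment over all genes (edgeR, adjusted p = 0.245). The direction held with each of the 6 libraries left out, where the log2 fold change lay between -0.68 and -0.46.

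Fgf7 had the largest fitted difference of the members but more spread than Fgf1. Fgf7 (ENSMUSG00000027208, chr2:125876578-125934218, plus strand), or keratinocyte growth factor, is secreted by mesenchymal cells and acts on the IIIb form of FGFR2. It had 7.61, 3.23 and 7.01 CPM in females and 2.96, 1.56 and 4.74 CPM in males. Female replicate 2 lay below male replicate 3, so the groups overlapped, and replicate 2 was the lowest of its sex in both. Fgf7 was 1.93 times as high in females, with a log2 fold change of -0.95 (SE 0.42, 95% interval -1.89 to -0.01; edgeR, adjusted p = 0.507). Leaving out 1 library moved it between -1.40 and -0.63 without a change of direction.

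The promoter of Fgf7 is shown because it was the member with the largest fitted difference and because the study concerns oestrogen, whose nuclear receptors bind pairs of a hexamer of this kind. Of the 10 members, 8 had entries in the RefSeq promoter set on GRCm38.p6, with 12 entries in all. Fgf1 and Fgfr1 had no entry and were not searched. The 250 bases before the start of Fgf7 (chr2:126034408-126034657, plus strand, GRCm38.p6) follow 5' to 3', with a CCAAT box (CCAAT) and a nuclear receptor hexamer (AGGTCA) in capitals.
Fgf7: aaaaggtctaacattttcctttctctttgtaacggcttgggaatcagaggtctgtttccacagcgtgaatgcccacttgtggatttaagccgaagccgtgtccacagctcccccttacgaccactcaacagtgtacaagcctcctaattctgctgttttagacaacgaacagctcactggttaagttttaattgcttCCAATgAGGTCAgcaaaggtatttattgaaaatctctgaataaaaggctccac
Each motif was searched on both strands: the GC box GGGCGG, the TATA box TATAAA, and the CCAAT box and hexamer just given, none of which contains another. The hexamer occurs in 14% and the CCAAT box in 33.8% of all 32851 promoter windows of the same length, so finding them in Fgf7 is a description of letters and not of a binding site. Among the 8 members with an entry, Fgf7 was the 1 that held the hexamer. The TATA box, found in 12.4% of all windows, occurred in none of the 12 entries. The window of Fgfr2 held none of the 4 motifs, and Fgfrl1, with 4 matches to the GC box (32.7% of all windows hold at least 1) and 2 to the CCAAT box, held more matches than any other single entry of the members.

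Fgf2 (ENSMUSG00000037225, chr3:37402473-37464257, plus strand), basic FGF, had 2, 2 and 15 counts in females and 1, 9 and 7 counts in males and was not tested. Of the 6 libraries, 3 were under the floor of 3 counts, and female replicate 3 had the most. With no filter on low counts, its log2 fold change was -0.14 with an SE of 1.21 (edgeR, adjusted p = 0.987), which limits a difference very little. Another gene shares this locus: Nudt6, a nudix hydrolase gene on the opposite strand, overlaps 44.9% of the exon bases of Fgf2 (3073 bases). Nudt6 had 214, 215 and 189 counts in females and 178, 146 and 230 counts in males, and a log2 fold change of -0.04 (edgeR, adjusted p = 0.978). Whether reads were counted by strand is not given in the sources used here, so reads in the shared bases could not be assigned to either gene.

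Fgf11 and Fgf13 encode FGF homologous factors, which stay inside the cell, do not act through the usual receptor route and bind voltage-gated sodium channels. Fgf11 (ENSMUSG00000042826, chr11:69686894-69692683, minus strand) had 1.86, 1.30 and 1.41 CPM in females and 1.18, 1.36 and 0.990 CPM in males. Male replicate 2 lay within the females, and the log2 fold change was -0.37 (SE 0.33, 95% interval -1.11 to 0.36; edgeR, adjusted p = 0.757). Fgf13 (ENSMUSG00000031137, chrX:58106279-58613431, minus strand) had 3.85, 3.86 and 1.96 CPM in females and 2.66, 3.23 and 3.52 CPM in males. All males lay between the lowest and the highest female, and the log2 fold change of -0.04 (SE 0.31, 95% interval -0.74 to 0.65; edgeR, adjusted p = 0.980) was 0.12, 0.10 and 0.06 without female replicate 1, female replicate 2 and male replicate 1.

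**Figure D2:**
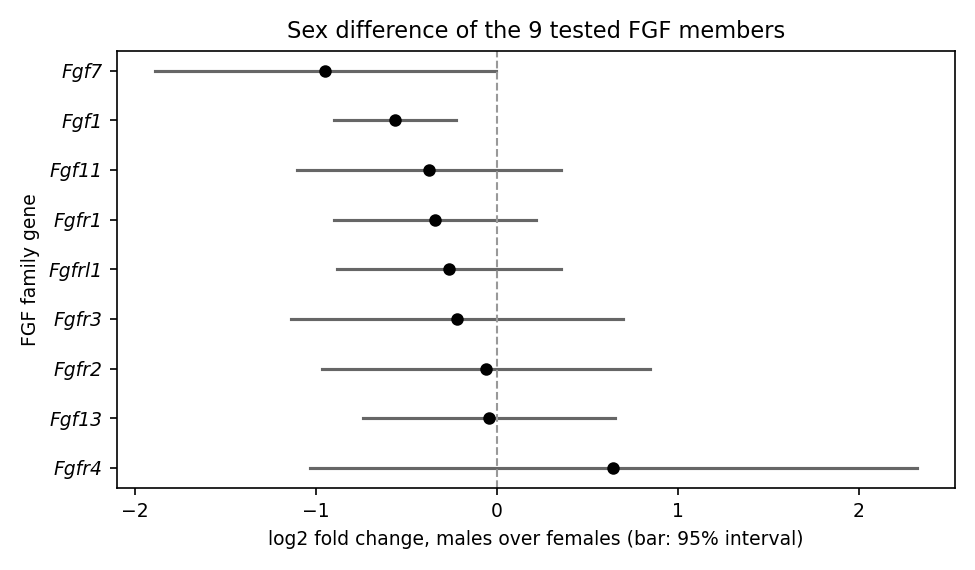
Log2 fold change, males over females, of the 9 tested FGF members from edgeR's quasi-likelihood fit, with bars for the 95% interval and a dashed line at 0. Of the 9 members, 8 lie below 0 (5 without female replicate 1), and the intervals of Fgf1 (-0.90 to -0.23) and Fgf7 (-1.89 to -0.01), not adjusted for the number of genes, stay below it.

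To compare levels between genes, CPM were divided by the length of the merged exons. On this scale, Fgf1 was highest with 2.89 ± 0.721 CPM per kb (SD, n = 6 libraries of both sexes), followed by Fgfr2 with 1.10 ± 0.433, Fgf7 with 1.03 ± 0.544 and Fgfrl1 with 0.935 ± 0.254 CPM per kb. Then came Fgfr1 with 0.574 ± 0.149, Fgf13 with 0.457 ± 0.107 and Fgf11 with 0.440 ± 0.0950 CPM per kb. Fgfr3 had 0.155 ± 0.0572, Fgfr4 0.0998 ± 0.0644 and Fgf2 0.0180 ± 0.0172 CPM per kb. The order had 2 clear steps: the lowest library of Fgf1 (2.16 CPM per kb) was above the highest of Fgfr2 (1.67), and the lowest of Fgf11 (0.323) was above the highest of Fgfr3 (0.247). The ranges of the other neighbours overlapped. Fgfrl1 was above Fgfr1 and Fgfr4 above Fgf2 within each of the 6 libraries, while Fgfr2 was above Fgf7 in the 3 males and below it in the 3 females, a split that was not tested. Fgf13 was above Fgf11 in 3 of 6 libraries. With the longest transcript as the length, Fgfr1 (1.19 CPM per kb) came before Fgfrl1 (1.01), and the ranges of Fgf11 and Fgfr3 overlapped. The order of these genes thus depends on the gene model, whose release for the counts is unknown.

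**Figure D3:**
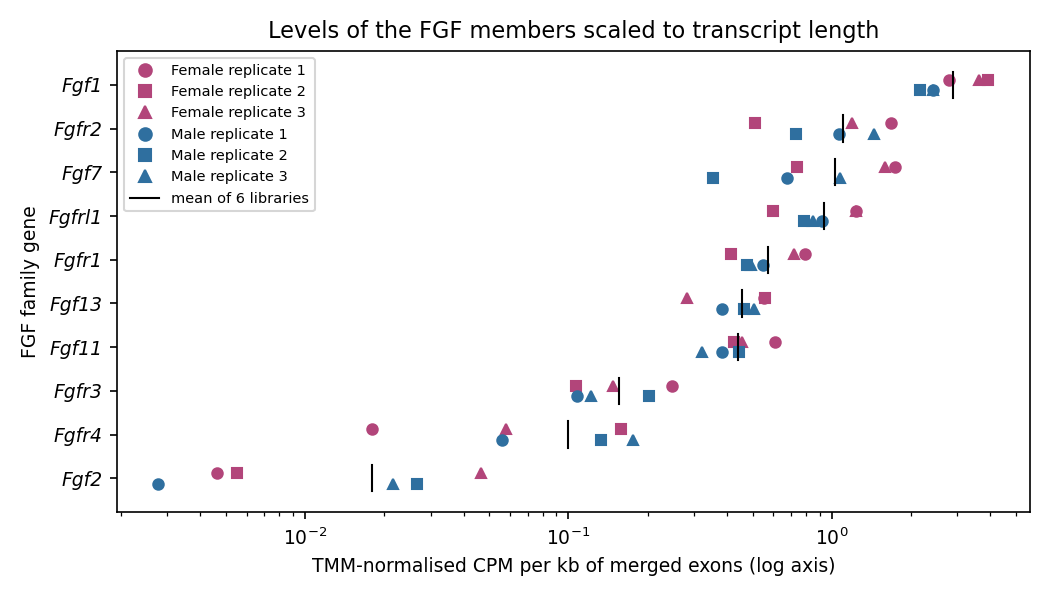
TMM-normalised CPM per kb of merged exons on a log axis for each FGF member and library (females above, males below each row's centre; shapes give replicate numbers), with a line at the mean of 6 libraries. Fgf1 lies above 2.16 CPM per kb in every library, and Fgf2 lies at or under 0.0467.

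Of the summed per-length level of the 4 kinase receptors, Fgfr2 made up 42.9% to 64.6% and Fgfr1 22.1% to 34.7% across libraries. Fgfr3 took 5.45% to 13.1% and Fgfr4 0.658% to 13.3%. The highest Fgfr4 share and the lowest Fgfr2 share were both in female replicate 2, the library with the fewest Fgfr2 counts (306). Of the summed per-length level of Fgf1, Fgf2, Fgf7, Fgf11 and Fgf13, Fgf1 made up 49.1% to 69.5% and Fgf7 10.3% to 30.5%. This sum includes the intracellular Fgf11 and Fgf13 and leaves out ligands that are not members, such as Fgf9.

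Replicate 2 was the lowest female for 6 of the 9 tested members, where 28.2% of all genes had their lowest female there, and the lowest male for 5 of 9, where the share of all genes was 31.0%. It was the lowest in both sexes for 4 of 9 members, Fgfr1, Fgfr2, Fgfrl1 and Fgf7, and for 9.49% of all genes. The 8 osteoblast markers summed lowest there too, with 251, 181 and 285 CPM in females and 267, 197 and 292 CPM in males. Replicate 2 was the lowest in both sexes for Sp7, Spp1, Ibsp and Alpl. It was not for Runx2, Bglap, Bglap2 and Dmp1, with Runx2 highest in replicate 2 of each sex. The same libraries had the lowest sums of the marrow stromal markers, with 3055, 1541 and 3193 CPM in females and 1895, 1285 and 2462 CPM in males. None of the 14 stromal markers was at 0 in any library, 13 of 14 had lower fitted levels in males, and 2 of 14 did not overlap between the sexes, lower in males in both cases (7.29% of all genes). The stromal sum was 0.47 lower in males on the log2 scale of the means. The endothelial sum was 602, 418 and 621 CPM in females and 334, 252 and 388 CPM in males, 0.75 lower in males on that scale, and 20 of 20 endothelial markers had lower fitted levels in males, 5 of them without overlap (7.29% of all genes). The neutrophil sum was 0.84 higher in males, with 12 of 14 markers higher in all males (7.25% of all genes). The macrophage sum had a log2 difference, males over females, of -0.42, with 8 of 8 markers at lower fitted levels in males and 6 of 8 without overlap, and the megakaryocyte sum one of -0.60, with 7 of 7 at lower fitted levels and 0 without overlap. Of the single markers, Cdh5 had 31.2, 15.8 and 32.6 CPM in females and 12.6, 6.49 and 16.1 CPM in males, Cxcl12 2213, 1090 and 2349 against 1351, 927 and 1923 CPM, and Pdgfra 11.7, 5.11 and 10.01 against 8.80, 5.48 and 8.72 CPM. Fitted log2 fold changes of the other single markers were -0.23 for Pecam1, -0.81 for Emcn, -0.16 for Col1a1 (collagen of stromal and bone cells), -0.58 for Pf4 (platelet factor of megakaryocytes), 1.06 for S100a8 and 0.55 for Hbb-bs (edgeR, adjusted p between 0.108 and 0.865). Fgf1 was highest in female replicate 2, where the stromal and endothelial sums were lowest among the females, so it did not share this order in females. Among males it was lowest in replicate 2, as those sums were. The part of the cell mixture in the values of the FGF members was not tested.

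**Figure D4:**
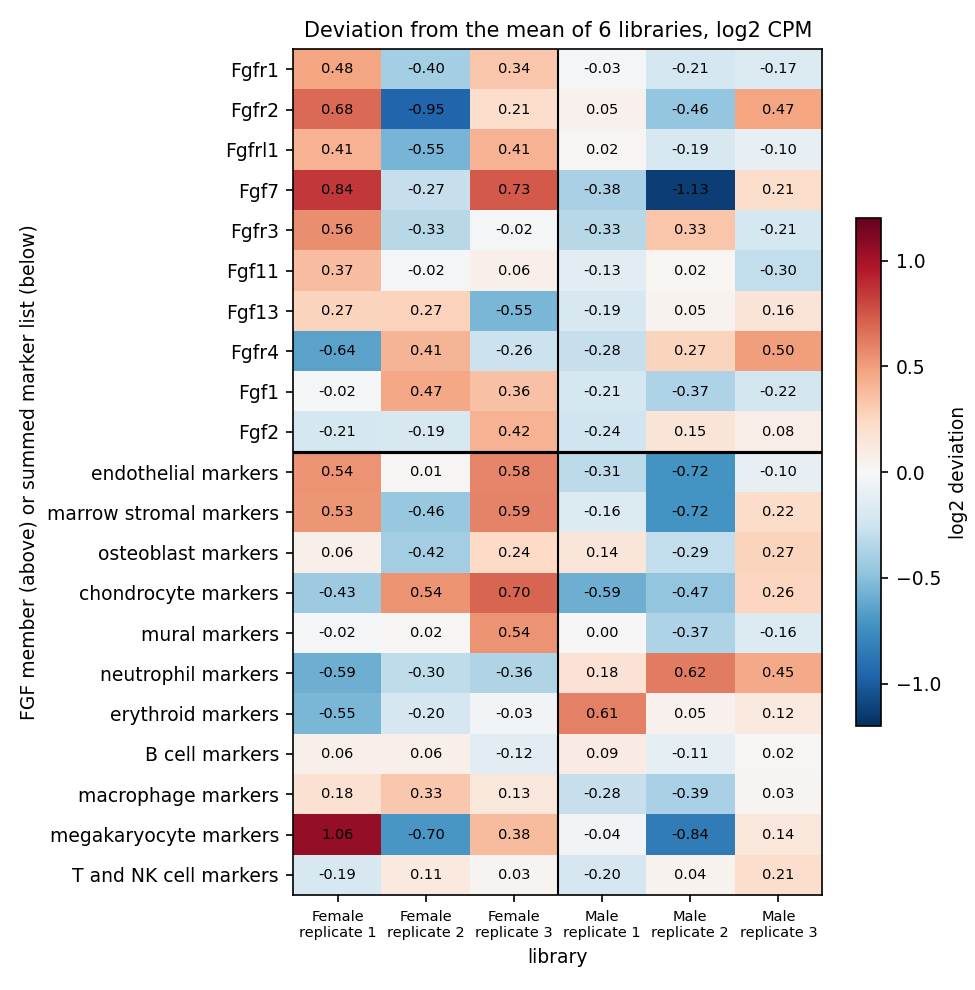
Deviation of each library from the mean of the 6 libraries in log2 CPM. The 10 FGF members are above the line and 11 summed marker lists below it, with females left and males right. Before the log, 0.5 CPM was added to the members and nothing to the sums. This shrinks the deviations of members with low CPM. Fgfr1, Fgfr2, Fgfrl1 and Fgf7 share low values in replicate 2 of both sexes with the stromal, osteoblast and megakaryocyte sums, and Fgf1 is highest there among the females. The endothelial sum is also lowest in replicate 2 within each sex, at 0.01 in females and -0.72 in males.

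For the 3 members with the highest CPM, the genes with the most similar pattern were sought among 12676 protein-coding genes of at least 1 CPM, by the root mean square difference in log2 CPM over the 6 libraries after centring each gene. Znhit6 (0.061), Tesmin (0.073) and Pex11a (0.073) were most like Fgf1. Cyp1b1 (0.16) and Unc5b (0.16) were among the genes most like Fgfr2, and Napepld (0.045), Kalrn (0.077) and Dll1 (0.081) most like Fgfr1. Cyp1b1, an oestrogen-metabolising cytochrome, had 30.1, 12.0 and 26.4 CPM in females and 22.3, 16.6 and 24.7 CPM in males, the same order of libraries within each sex as Fgfr2. Znhit6 had 10.02, 14.0 and 13.2 CPM in females and 9.32, 8.60 and 9.08 CPM in males, without overlap between the sexes. These genes were chosen for likeness over the same 6 libraries, so the shared order and lack of overlap follow from the choice.

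The wider FGF pathway was read through 7 lists with 102 genes in the table, of which 79 passed the filter and 0 were called by edgeR. DESeq2's Wald test called 1, Sdc3, and 345 of 19480 genes in the whole table. At an unadjusted p under 0.05 there were 14 (17.7%, against 9.79% of all genes), 10 lower and 4 higher in males, and the smallest adjusted p was 0.244 in edgeR. Other FGF ligands were few: of 17 listed, 5 had 0 counts in every library, and 4, namely Fgf3, Fgf5, Fgf9 and Fgf10, passed the filter, 2 with lower and 2 with higher fitted levels in males. Fgf9, a ligand of the IIIc forms of FGFR2 and FGFR3, had the highest CPM of these with 3.07, 5.26 and 4.32 CPM in females and 2.49, 7.08 and 7.82 CPM in males, and the groups overlapped (log2 fold change 0.46, SE 0.39; edgeR, adjusted p = 0.752). Fgf10, which also acts on FGFR2 IIIb, had 0.548 to 1.18 CPM and Fgf5 0.192 to 0.609 CPM over the 6 libraries.

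Heparan sulfate proteoglycans and other co-receptors held the lowest p-value of the pathway. Of the 18 that passed the filter, 12 had lower and 6 higher fitted levels in males, with a median log2 fold change of -0.09, and 4 were under the unadjusted threshold, all lower in males (4.76% of all genes). Sdc3, which encodes the cell surface proteoglycan syndecan-3, had 724, 728 and 753 CPM in females and 507, 393 and 569 CPM in males without overlap. Its log2 fold change was -0.59 (SE 0.16; edgeR, adjusted p = 0.244). Hspg2, which encodes the basement membrane proteoglycan perlecan, had 30.8, 14.7 and 33.2 CPM in females and 14.4, 5.70 and 14.9 CPM in males, with replicate 2 lowest in both sexes as for Fgfr2 and Fgf7. Its log2 fold change was -1.17 (SE 0.40; edgeR, adjusted p = 0.383). Sdc1 (syndecan-1) had a log2 fold change of -0.48 (SE 0.19; edgeR, adjusted p = 0.441), and Sdc4 (syndecan-4), at 114 CPM in females and 113 CPM in males, had one of -0.0031 (SE 0.11; edgeR, adjusted p = 0.997).

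Enzymes of heparan sulfate synthesis and editing, which shape the chains that FGFs bind, numbered 12 after the filter, 8 with lower and 4 with higher fitted levels in males and a median log2 fold change of -0.15. Ext2, a subunit of the chain polymerase, had 36.1, 32.4 and 33.6 CPM in females and 27.3, 21.9 and 26.2 CPM in males without overlap (log2 fold change -0.44, SE 0.13; edgeR, adjusted p = 0.290). Sulf1, a sulfatase that trims the chains outside the cell, went the other way without overlap, with 2.26, 1.74 and 3.60 CPM in females and 4.06, 5.30 and 5.48 CPM in males (log2 fold change 0.97, SE 0.31; edgeR, adjusted p = 0.336). Ndst1 and Hs6st1, sulfotransferases with the highest CPM of the list, had log2 fold changes of 0.08 and -0.34 (edgeR, adjusted p = 0.890 and 0.547).

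Of 21 adaptors and members of the RAS-MAPK cascade, 10 had lower and 11 higher fitted levels in males, with a median log2 fold change of 0.0066. The adaptor Grb2, at 260 CPM in females and 256 CPM in males, had a log2 fold change of -0.02 (edgeR, adjusted p = 0.973). Plcg1, the phospholipase that FGF receptors recruit, had 26.9 CPM in females and 20.6 CPM in males (log2 fold change -0.39, SE 0.13; edgeR, adjusted p = 0.352).

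Of 12 feedback inhibitors, 5 had lower and 7 higher fitted levels in males, with a median log2 fold change of 0.07. Dusp6, a phosphatase of ERK that FGF signalling is known to induce, had 68.2, 68.9 and 69.7 CPM in females and 91.7, 84.2 and 89.5 CPM in males, among the tightest groups in the pathway and without overlap. Its log2 fold change was 0.36 (SE 0.10; edgeR, adjusted p = 0.273). Spred1, an inhibitor of RAS signalling, had a log2 fold change of -0.30 (SE 0.13; edgeR, adjusted p = 0.496).

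Among the 9 target transcription factors, 4 had lower and 5 higher fitted levels in males. Etv5, an ETS factor induced by FGF signalling, had 20.9 CPM in females and 16.5 CPM in males (log2 fold change -0.34, SE 0.14; edgeR, adjusted p = 0.467), and Myc 27.3 and 22.2 CPM (log2 fold change -0.30, SE 0.13; edgeR, adjusted p = 0.486). Elk4 and Elk3, with the highest CPM of the list, had log2 fold changes of 0.09 and -0.11 (edgeR, adjusted p = 0.889 and 0.808). Etv5 was thus lower, and Dusp6 higher, in every male than in any female. Of the sodium channel partners of Fgf11 and Fgf13, 3 of 10 passed the filter, led by Scn4a with 10.8 to 19.0 CPM, a log2 fold change of -0.10 (SE 0.24; edgeR, adjusted p = 0.928), and Scn2a with 0.719 to 1.26 CPM and a log2 fold change of 0.07 (edgeR, adjusted p = 0.974).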

How the data were processed

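RNA of BECs was measured in 3 libraries of female and 3 of male mice aged 12 weeks, and other samples were not analysed here. The authors deposited raw counts, the number of reads they assigned to each gene in each library. The paper's methods name STAR on GRCm39 with featureCounts, whereas the submitters' processing notes list TopHat2 2.0.11, featureCounts and mm9. The annotation release and strand setting are not given in the sources used here, so genes that overlap could share reads. The labels give a directional kit and polyadenylated RNA, and the paper a total RNA kit, and the labels describe sorting into lysis buffer where the paper describes antibody-coated beads.

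Ensembl identifiers were matched to GENCODE M39 on GRCm39 (31073 of 37991, with 96.2% of the counts), which gave symbols, positions and lengths. Libraries of the 6 samples differed beyond sampling noise in all 15 pairs (chi-square per degree of freedom at least 33.1). Counts were scaled with TMM and filtered by edgeR's default by sex. They were fitted with edgeR 4.0.16 in R 4.3.3 (robust quasi-likelihood, sex alone, Benjamini-Hochberg adjustment over 19480 genes). The fit was tested on simulated data whose changes were larger than any fitted for the members, so changes of the members' size were not simulated. Intervals of fold changes are 95% and not adjusted. The paper used DESeq2, here (1.42.0) an alternative. Sequences came from GRCm39 with M39, RefSeq promoters on GRCm38.p6 and the study's primer list. Named genes were all members, in each pathway list the 2 most abundant, the 2 of smallest p and any called with or without a replicate block, genes overlapping a member's exons, 9 markers (the 8 osteoblast markers were named after their values were seen), and the 3 genes most like each of the 3 most abundant members. Some items that this rule covers are not reported here. Members and lists were chosen with earlier results of these data known. Spry3 and Vpreb1 had no matching row. Alternatives were other scaling (DESeq2's size factors, total counts), no filter, at least 10 counts in every library, genes over 1% of counts left out, fits without robust estimation, DESeq2's Wald test, the replicate block, each library left out, and DESeq2 with the block, which was added after seeing the data.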

Additional observations from a re-analysis of the deposited data

How the results depend on the processing

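Fgf1 and Fgf7 kept their direction under all 15 alternatives, and so did Fgfr1, Fgfrl1 and Fgf11, as did Fgfr4 under the 14 in which it was tested. No member was called under any alternative except DESeq2 with the replicate block, which called 740 of 19480 genes and among them 2 members, Fgf1 (-0.55, adjusted p = 0.0359) and Fgf7 (-0.98, adjusted p = 0.0133). The adjusted p of Fgf1 lay between 0.0359 and 0.272 and that of Fgf7 between 0.0133 and 0.575 under the alternatives that kept all libraries, and up to 0.922 and 1.00 with a library left out. Members at an unadjusted p under 0.05 numbered 1, Fgf1, when genes over 1% of counts were left out, and 1 to 4 with 1 library left out.

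The replicate numbers in the labels are shared by the sexes, whose animals differ. Deviations of same-numbered libraries correlated at 0.25, 0.061 and 0.36, and 5 of 6 libraries correlated best with their own number, a hint from the data and not from the design, so the numbers were not taken as pairs. With the replicate block, edgeR called 428 genes (2.2%) in the whole table in place of 8, and 3 of the pathway genes, Sdc1 (adjusted p = 0.0486), Sdc3 (0.0403) and Hspg2 (9.12e-04), all lower in males. Fgf1 (adjusted p = 0.0730) and Fgf7 (0.0624) were not called, and 6 of the 9 members had lower fitted levels in males in place of 8. Of the markers, the block called 13 of 20 endothelial and 2 of 14 stromal genes lower and 9 of 14 neutrophil genes higher in males, where edgeR without it called 0. DESeq2 with the block called 4 of the pathway, these 3 and Sulf1. Without the block, DESeq2 called 345 genes and 1 of the pathway, total counts alone gave 14 genes, no filter gave 98, and a library left out gave 5 to 96, the 96 without male replicate 3.

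The log2 fold change of Fgfr2 became 0.041 with the block and 0.049 with DESeq2 and the block, and lay between -0.41 and 0.35 with a library left out. That of Fgf13 became 0.0035 and 0.0095, and -0.30 to 0.12 with a library left out, and that of Fgfr3 was -0.54 to 0.19. With a library left out, Fgfr1 lay between -0.58 and -0.15, Fgfrl1 between -0.54 and -0.098, and Fgf11 between -0.49 and -0.19. In the main fit, the log2 fold changes of Fgfr2, Fgf13, Fgfr3, Fgfrl1 and Fgfr4 were smaller in size than their standard errors. The B cell marker sum was -0.011 with total counts alone (0.0018 with TMM). The causes were not tested. Fgf2 and Fgfr4 had at most 15 and 37 counts in a library.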
